A study of Mus musculus with 4 samples.

Results

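Sry, Sox9 and Sox8 were followed through single-cell RNA-seq of mouse fetal gonads and the adjoining mesonephros (the transient kidney) at the time of sex determination. These 3 of the 21495 genes in the table were chosen by name, as the trigger of testis development and the SoxE genes that act with it in Sertoli cells, and their level and the share of cells with a unique molecular identifier (UMI, 1 captured transcript) were obtained for each of the 13 annotated cell types. The study had 4 groups of 1 sample each, an XY control at E11.5 with 23527 cells, an XY mutant at E11.5 with 17057, an XY mutant at E11.75 with 8492 and an XX control at E11.5 with 3669. The mutants, named KO in the plots, are called the E11.5 and the E11.75 mutant. The stages follow the sample labels and the deposited annotation, whereas the methods text gives the cell numbers of both mutant stages in the opposite order. Mutant embryos carried a homozygous CRISPR deletion of the miR-17~92 microRNA cluster in the G4 embryonic stem cell line, an F1 hybrid of C57BL/6J and 129, and were made from these cells by tetraploid aggregation, so the deletion was present in every cell of the embryo proper. XY controls came from the unedited parental G4 line, whereas XX controls were bred from C57BL/6J males and 129 females. The labels give the strain of all samples as C57BL/6 x 129S4/SvJae and no treatment. Gonads with mesonephros of several embryos were pooled for each sample and fixed in methanol before droplet capture.

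SRY is a transcription factor encoded on the Y chromosome and expressed briefly in the pre-supporting cells of the XY gonad, the progenitors of Sertoli cells. It activates Sox9, whose product then maintains its own expression together with FGF9 and prostaglandin D2 signals and drives Sertoli differentiation. SOX8 acts alongside SOX9 in Sertoli cells, and SoxE genes are also known for their roles in neural crest, glia, kidney ducts and cartilage precursors.

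The deleted microRNAs and the matches of their seeds in the 3 genes are shown because microRNAs find their targets mainly through the seed. The 6 principal mature microRNAs of the cluster fall into 4 families by seed, bases 2 to 8, given here in capitals (RefSeq, GRCm38.p6, plus strand, between bases 115043684 and 115044496 of chromosome 14).
miR-17-5p: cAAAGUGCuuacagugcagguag
miR-20a-5p: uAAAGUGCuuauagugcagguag
miR-18a-5p: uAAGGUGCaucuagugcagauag
miR-19a-3p: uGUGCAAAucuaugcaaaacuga
miR-19b-3p: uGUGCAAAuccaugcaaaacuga
miR-92a-3p: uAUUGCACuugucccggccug
The transcript strand alone was searched for the complement of bases 2 to 8 of each seed and for the complement of bases 2 to 7 followed by A. The words of miR-17 and miR-20a were thus GCACTTT and, in the shorter form, CACTTTA. Those of miR-18a were GCACCTT and likewise CACCTTA. Those of the miR-19 pair were TTTGCAC and likewise TTGCACA. Those of miR-92a were GTGCAAT and likewise TGCAATA. Both words of a family share 6 letters. Sox9 (ENSMUSG00000000567.5, mm10 chromosome 11, 112782224 to 112787760, plus strand, 3 exons) held 1 match in its annotated 3′ UTR of 2250 bases, to miR-92a, at UTR bases 868 to 874 (chromosome 11, 112786378 to 112786384, exon 3), in capitals below.
Sox9 3′ UTR: ccttctttTGCAATAaggggaat
Sox8 (ENSMUSG00000024176.10, chromosome 17, 25565892 to 25570686, minus strand, 3 exons) had none of these words in its 1441 bases of 3′ UTR. Of genes with a 3′ UTR within 10% of the length of that of Sox9, 65.2% had a match (971 of 1489), and of those near the length of Sox8, 51.7% (747 of 1444), against 42.8% of all 21166 genes with an annotated 3′ UTR. The annotated model of Sry (ENSMUSG00000069036.3, chromosome Y, 2662471 to 2663658, minus strand, 1 exon) ends at its stop codon, so no UTR was searched. A match of letters is a description and not a measured site of binding. The paper, which predicted targets with TargetScan, counts neither Sox9 nor Sry among the putative targets of the cluster.

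Before the genes were compared, the samples were set side by side. The samples held between 37841392 and 105192238 UMIs, and the median cell had between 3893 and 4763 UMIs in the XY samples but 15509 in the XX control. Libraries numbered 7 in all, since 3 samples had been captured in 2 runs and the E11.75 mutant in 1. Of 52400 distinct cell barcodes, 345 occurred in more than 1 library. The labels of Sertoli cells were borne out by their markers, with 6 of 6 highest in that type in the XY control, and those of germ, endothelial, immune and adrenosympathetic cells by all of theirs, though the immune markers were at lower levels than in the other samples. For pre-supporting cells this held for 1 of 5 (Runx1), since Wt1, Gata4 and Nr5a1 were highest in Sertoli cells and Wnt4 in supporting-like cells. The name stands here only for a label of the deposited annotation, Bipotential progenitors, and Sertoli cells were deposited as Supporting. Other types were renamed too, with mesonephric mesenchyme deposited as Mesonephros and coelomic epithelium as Epithelial. The names of supporting-like cells (1 of 3 markers) and coelomic epithelium (1 of 4) were also weakly borne out, and those of mesonephric mesenchyme (3 of 5), mesonephric tubules (5 of 7) and interstitial progenitors (3 of 4) in part. Because that annotation was built from clusters of the same cells, in which these genes may have taken part, pre-supporting and Sertoli cells were also summed as the supporting lineage, with 2393, 1108, 1092 and 354 cells in the 4 samples in the order above. With 1 sample per group there is no test, and the 95% intervals given cover counting error only. The E11.75 mutant differs from the XY control in stage and genotype, which cannot be told apart, and the XX control differs from it in breeding, depth and cell filtering as well as sex. Each difference from the XY control rests on that same sample.

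Most Sry transcripts were found in the supporting lineage of XY gonads. The samples held 187 Sry UMIs in the XY control, 42 in the E11.5 mutant, 92 in the E11.75 mutant and 0 in the XX control. The supporting lineage, 10.2, 6.50 and 12.9% of the cells of the XY samples, held 84.0, 83.3 and 88.0% of these UMIs. In CPM, the UMIs of a gene per 1000000 UMIs of the cells summed, Sry stood at 13.0 (11.1 to 15.2) in the XY control, 5.66 (3.94 to 7.88) in the E11.5 mutant and 14.4 (11.45 to 17.9) in the E11.75 mutant. The E11.5 mutant was thus below both other XY samples with no overlap of intervals, and the later mutant overlapped the control. No Sry UMI was present among the 6829637 UMIs of the XX lineage, where 3 counts would be 0.439 CPM. XX cells have no Sry gene, so this 0 was fixed in advance and no ratio is read from it.

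On the log2 scale Sry was lower in the E11.5 mutant than in the XY control by a difference of -1.19 (-1.78 to -0.67), while the median gene of the lineage shifted by -0.10. The difference between the E11.75 mutant and the control was 0.15 (-0.26 to 0.54) beside a median gene at 0.18. From the E11.5 to the E11.75 mutant the difference was 1.34 (0.76 to 1.96), beside 0.31 for the median gene. The libraries of each sample gave like values, at 13.4 and 12.7 CPM for the runs of the XY control and 5.72 and 5.61 for those of the E11.5 mutant.

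The size of the Sry difference in the E11.5 mutant was also taken by depth of the cell, where the classes under 5000 UMIs were added after the values were seen. Among lineage cells with at least 3000 but under 5000 UMIs, Sry was at 18.0 CPM (14.4 to 22.3, 84 UMIs) in the XY control and at 3.70 (1.36 to 8.04, 6 UMIs) in the E11.5 mutant, a difference of -2.18 (-3.77 to -1.10) on the log2 scale. In cells of 5000 UMIs or more the levels were 9.07 CPM (6.95 to 11.6, 62 UMIs) and 6.54 (4.38 to 9.40, 29 UMIs), and the difference of -0.46 had an interval (-1.16 to 0.19) that included 0. Sertoli cells made up 26.6 and 38.7% of these cells in the control, and 1.56 and 2.69% in the mutant. The E11.75 mutant stood at 16.8 and 12.8 CPM in the same classes, near or above the control in both. The control's own level was lower in the deeper class with no overlap of intervals, while those of the log2 differences overlapped slightly, and the part of cell depth in the difference was not tested.

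Per cell, Sry was sparse, and 1 UMI was the usual count. A UMI of Sry was present in 6.06% of lineage cells of the XY control, 3.16% of the E11.5 mutant and 6.04% of the E11.75 mutant. Every cell was then thinned to 3000 UMIs in 1 random draw, with shallower cells left out. The shares became 4.15% (90 of 2169), 1.23% (13 of 1054) and 4.43% (44 of 994), against 0 of 351 cells of the XX lineage. The draw was not repeated, so the spread that thinning adds to these small counts was not measured. Thinned to 5000 UMIs, which leaves only the deeper cells, the share was 4.39% (3.22 to 5.84%) in the control and 3.59% (2.31 to 5.29%) in the E11.5 mutant, with overlapping intervals. Germ cells, which should lack Sry, had no Sry UMI in any sample at medians between 9279.5 and 40644 UMIs per cell, which allows a share of up to 0.540% in the XY control, 1.82% in the E11.5 mutant and 1.97% in the E11.75 mutant. The unthinned lineage shares lay above these limits in each XY sample. The thinned share of the E11.5 mutant did not, but the limits come from unthinned cells and are set by the number of germ cells. Thinned shares cannot be judged against them.

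By the deposited types, Sry was present in both parts of the lineage in each XY sample. Pre-supporting cells of the XY control held 14.6 CPM (12.04 to 17.5) and Sertoli cells a lower 10.1 (7.29 to 13.7), with overlapping intervals and no direct ratio taken. In the E11.75 mutant the levels were 14.4 and 14.6 CPM, which did not differ beyond their counting error. The 24 Sertoli cells of the E11.5 mutant had 4 Sry UMIs, or 26.4 CPM (7.2 to 67.7). These UMIs were too few to order Sertoli cells against the 5.14 CPM of the pre-supporting cells. The paper reports Sertoli cells at E11.5 in XY controls only, and elsewhere calls them almost absent from mutants at that stage. The deposited type nonetheless held these 24 cells, and 2 in the XX control.

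Outside the lineage the XY control held 30 Sry UMIs, the E11.5 mutant held 7 and the E11.75 mutant held 11. Coelomic epithelium, the surface layer from which supporting cells arise, held 11, 5 and 3 of them (1.02, 0.501 and 0.685 CPM), and mesonephric mesenchyme, with far more cells, 10, 2 and 2. A UMI of Nr5a1 or Gata4, transcription factors of the gonad primordium, was present in 13 of the 27 outside cells with Sry in the control (48.1%), in 1 of 6 (16.7%) in the E11.5 mutant and in 7 of 10 (70.0%) in the E11.75 mutant. Among the remaining outside cells this share was between 15.3 and 18.5%. The outside cells with Sry were deeper than the others, with medians of 5195, 5502 and 7352.5 UMIs against 3789, 4716 and 3758.5, and the part of depth in this difference was not tested.

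**Figure D1:**
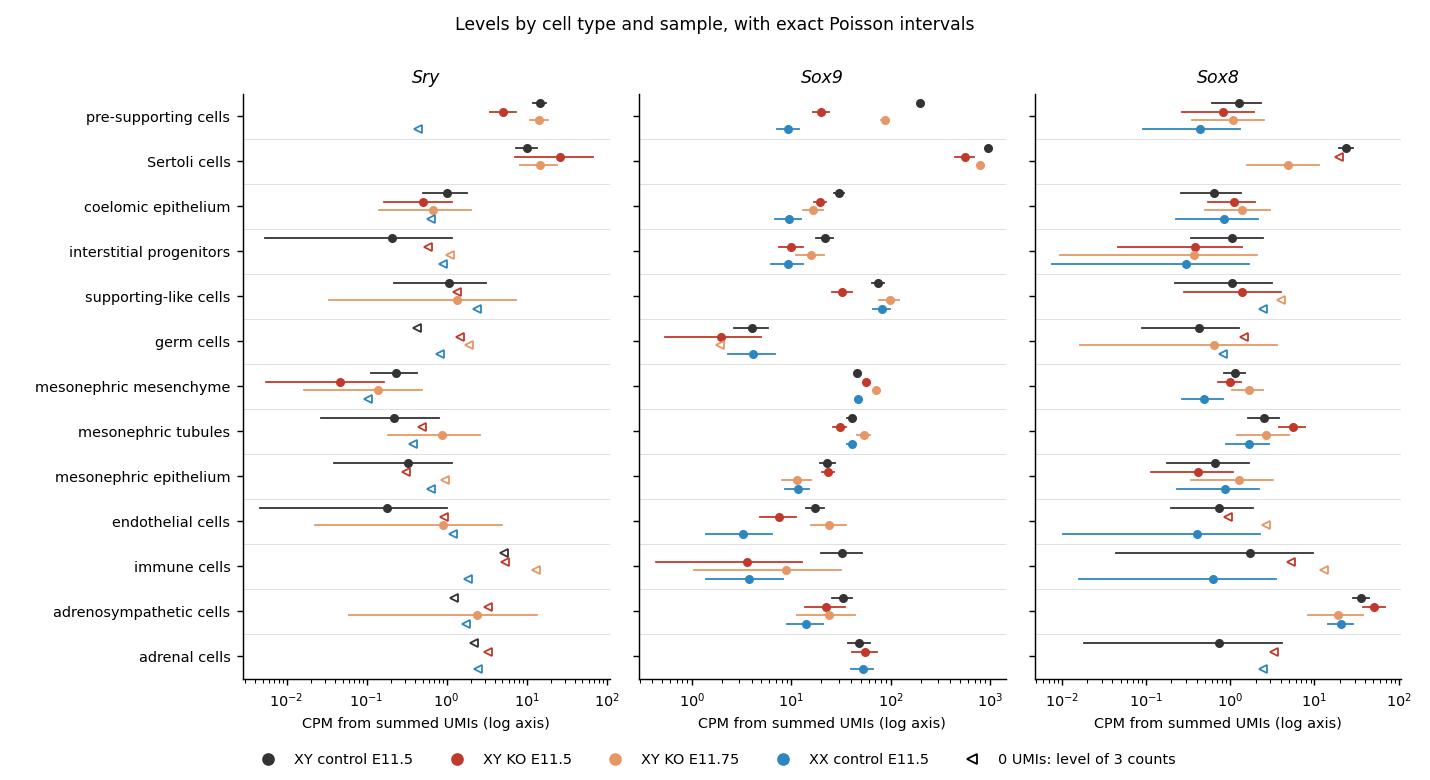
Levels of Sry, Sox9 and Sox8 in each cell type, as CPM from summed UMIs on a log axis, with 1 point per sample and lines for exact Poisson 95% intervals; open triangles mark the level of 3 counts where no UMI was found. Sry is concentrated in the top rows, Sox9 spans all types with its highest point at 944 CPM in control Sertoli cells, and Sox8 is highest in adrenosympathetic and control Sertoli cells.

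UMIs of Sox9 were found in most cell types, and the type that held most of them changed between samples. The supporting lineage held 61.8% of the 8893 Sox9 UMIs of the XY control, 5.86% of the 3499 of the E11.5 mutant, 45.0% of the 2703 of the E11.75 mutant and 3.10% of the 2062 of the XX control. Mesonephric mesenchyme, the stroma beside the gonad, held 22.0, 70.5, 38.5 and 64.7%, though its share of cells lay between 45.5 and 52.0% in every sample. Low levels cannot be read as expression, since endothelial cells, which are not known for Sox9, stood at 17.5 CPM in the XY control, close to the 21.7 to 30.3 CPM of interstitial progenitors, mesonephric epithelium and coelomic epithelium.

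**Figure D2:**
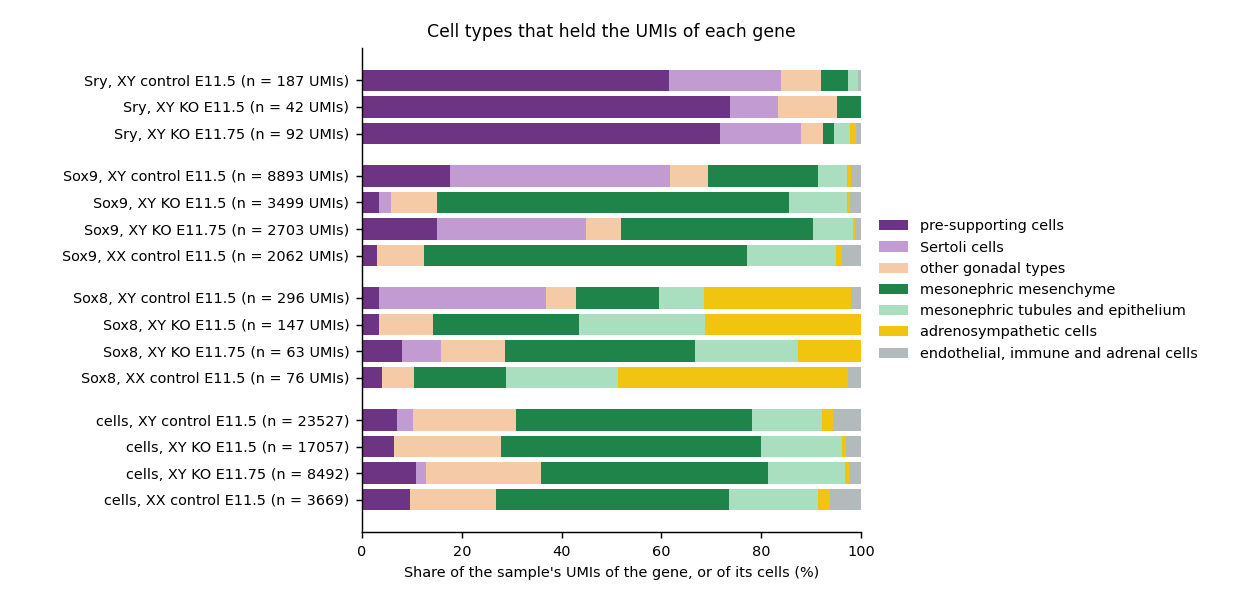
Share of each sample's UMIs of Sry, Sox9 and Sox8 that came from each group of cell types, with the share of cells in the bottom 4 bars for reference (horizontal axis in percent). The lineage segments of Sox9 shrink from 61.8% in the XY control to 5.86% in the E11.5 mutant, and the mesenchyme segment takes 70.5% there.

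In the supporting lineage Sox9 was at 456.5 CPM (445 to 469) in the XY control, 33.2 (28.8 to 38.0) in the E11.5 mutant, 216 (204 to 229) in the E11.75 mutant and 9.37 (7.22 to 11.97) in the XX control. All 4 levels were separate. The log2 differences from the XY control were -3.78 (-3.99 to -3.58), -1.08 (-1.17 to -0.99) and -5.60 (-5.99 to -5.25) in that order, beside -0.10, 0.18 and -0.12 for the median gene. The E11.5 mutant was thus lower than the control but still higher than the XX control, by 1.82 (1.41 to 2.25). Of its 205 Sox9 UMIs in the lineage, 84 lay in its 24 Sertoli cells. In pre-supporting cells alone it stood at 20.1 CPM (15.3 and 24.4 in its runs), against 9.29 in the XX control. Sox9 in the lineage was higher in the later mutant than in the earlier one by 2.70 (2.49 to 2.93).

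These differences were larger than those of most genes of the lineage. A level at least 2-fold below the XY control was found for 3 of the 3 genes in the E11.5 mutant, where 7.38% of all genes with enough UMIs were as low. Of these, the Sry difference was no longer 2-fold in cells of 5000 UMIs or more (-0.46), nor that of Sox8 in pre-supporting cells alone (-0.55). In the E11.75 mutant such a level was found for 2 of 3 (Sox9 and Sox8), where 4.11% of genes were as low. The Sox9 difference there was no longer 2-fold in cells of 5000 UMIs or more (-0.92) or over all gonadal cell types (-0.82). In pre-supporting cells alone it was still 2-fold for Sox9 (-1.18) but not for Sox8 (-0.15). In the XX control such a level was found for both of the 2 genes present, where 7.02% of genes were as low. Between the mutants, Sry and Sox9 were at least 2-fold higher at E11.75, as were 11.1% of genes.

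Fewer lineage cells held Sox9 in the mutants, and those that did held fewer UMIs. After thinning to 3000 UMIs, a Sox9 UMI was present in 43.2% of lineage cells of the XY control, 6.64% of the E11.5 mutant, 24.8% of the E11.75 mutant and 1.99% of the XX control. Unthinned, the shares were 48.7, 9.30, 29.1 and 10.2%, the last from much deeper cells. Endothelial cells gave thinned shares of 3.27, 2.54, 3.50 and 2.50%, at median depths of 4796, 8373.5, 5343 and 17632 UMIs. By thinned shares, the XX lineage was at the level of its endothelial cells and the E11.5 mutant above it. By CPM, however, the XX lineage (9.37, 64 UMIs) lay above XX endothelial cells (3.23, 1.40 to 6.37, 8 UMIs) and germ cells (4.15, 2.32 to 6.85), without overlap.

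The number of Sox9 UMIs in a thinned cell with at least 1 averaged 3.04 in the XY control, 1.56 in the E11.5 mutant, 2.49 in the E11.75 mutant and 1.29 in the XX control. Cells with 5 or more made up 9.22% (8.04 to 10.5, 200 cells) in the control, 0.1897% (2 cells) and 3.52% (2.46 to 4.86, 35 cells) in the mutants, and 0 of 351 in the XX control. The highest counts in any cell were 15, 6, 12 and 2.

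**Figure D3:**
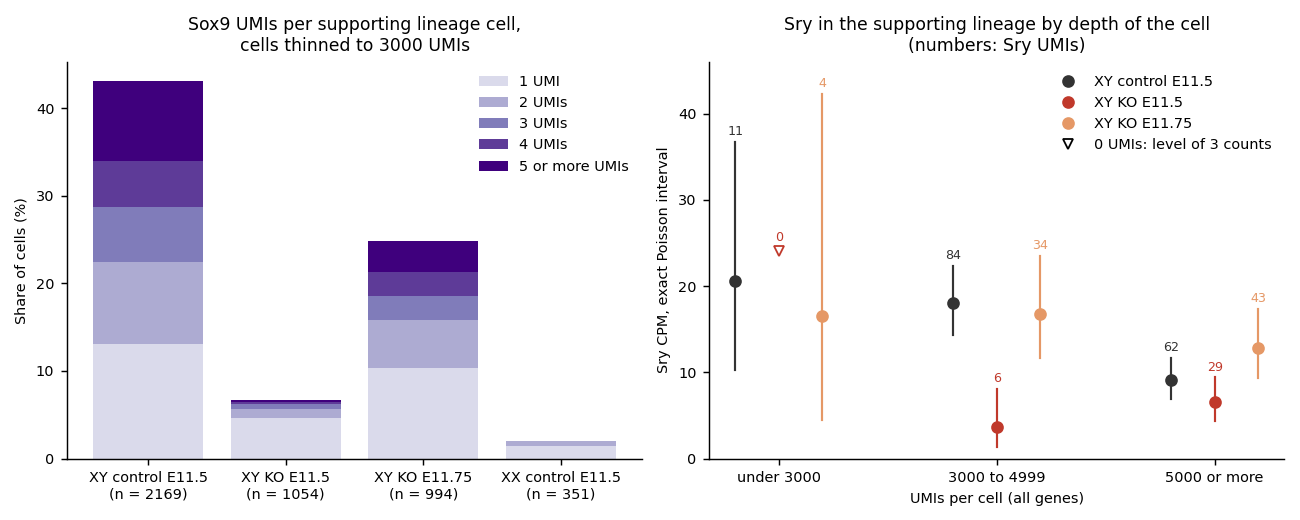
Left, share of supporting lineage cells with 1 to 5 or more Sox9 UMIs after thinning to 3000 UMIs per cell; right, Sry CPM of the lineage by the number of UMIs in the cell, with exact Poisson 95% intervals and Sry UMIs above the points. Sox9 cells make up 43.2% of the XY control, 6.64% of the E11.5 mutant and 24.8% of the E11.75 mutant, and the Sry intervals of the control and the E11.5 mutant are apart in the middle class and overlap in the deepest.

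Split by the deposited types, the Sox9 difference in Sertoli cells was much smaller than that of the whole lineage. Sertoli cells stood at 944, 555 and 790.0 CPM in the XY samples, from 752, 24 and 168 cells, and the 2 XX cells of that name held 1 UMI. The log2 difference from the control was -0.76 (-1.10 to -0.45) in the E11.5 mutant and -0.26 in the E11.75 mutant. Sox9 may have helped to place cells under this name, so their level is a description. Ranked by Sox9 among the types of a sample, pre-supporting cells were at place 2 of 13 in the XY control, 8 of 13 in the E11.5 mutant, 3 of 12 in the E11.75 mutant and 8 of 12 in the XX control.

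Sox9 was more frequent in lineage cells with an Sry UMI than in those without one, and in the mutants whether the intervals were apart varied with thinning and with the cells counted. Of thinned lineage cells with an Sry UMI in the XY control, 56.7% (51 of 90) also had Sox9, against 42.6% of those without. In the E11.75 mutant the shares were 36.4% (16 of 44, 22.4 to 52.2%) and 24.3%, with overlapping intervals, but as deposited they were 48.5% (32 of 66, 36.0 to 61.1%) and 27.9%, without overlap. In the E11.5 mutant the thinned shares were 30.8% (4 of 13, 9.09 to 61.4%) and 6.34%, without overlap. Among thinned pre-supporting cells alone the control gave 49.2% (32 of 65, 36.6 to 61.9%) against 22.0%. There the E11.75 mutant gave 29.7% (11 of 37, 15.9 to 47.0%) against 12.5%, also apart, and the E11.5 mutant 18.2% (2 of 11) against 4.91%, which overlapped. Among Sertoli cells the intervals overlapped in each XY sample, with 76.0% (19 of 25) against 85.2% in the control, 71.4% (5 of 7) against 84.6% in the E11.75 mutant and 2 of 2 against 72.7% in the E11.5 mutant. Numbers of cells with Sry in the mutants were small, and the cells of 1 sample are not replicates.

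Outside the supporting lineage Sox9 did not move in 1 direction. In mesonephric mesenchyme the level was 45.8 CPM in the XY control, 56.7 in the E11.5 mutant, 71.9 in the E11.75 mutant and 46.5 in the XX control. The log2 difference was 0.31 (0.22 to 0.39) in the E11.5 mutant and 0.65 (0.54 to 0.76) in the E11.75 mutant, where the median gene shifted by 0.15 and genes of similar 3′ UTR length by 0.25. Runs of a sample were alike, at 44.8 and 46.9 CPM in the control and 56.9 and 56.6 in the E11.5 mutant. At least 2-fold higher in the mesenchyme were 1.2% of genes in the E11.5 mutant and 5.02% in the E11.75 mutant, and Sox9 was in neither set. The mesenchyme of the 2 mutants differed by 0.34 (0.24 to 0.45), and by 0.08 with an interval that included 0 once libraries were rescaled by the trimmed mean of M values (TMM).

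By cluster of the mesenchyme, the differences were unequal. Mesonephros 1 stood at 42.3, 44.1, 59.9 and 40.5 CPM of Sox9 in the 4 samples, and Mesonephros 2 at 37.6, 51.2, 55.7 and 37.9 CPM. In the cluster Mesonephros 3 the level of Sox9 was 58.1 CPM in the control, 74.0 in the E11.5 mutant, 126.9 in the E11.75 mutant and 66.6 in the XX control. In the cluster Mesonephros 4 the values of the 4 samples were close, at 67.2, 58.2, 71.6 and 79.9 CPM. Of the tubule clusters, Mesonephric tubules 1 was the highest in Sox9, at 73.4, 77.1, 128.7 and 79.1 CPM.

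Supporting-like cells, a name given to progenitors of the rete testis, of whose markers only Pax8 was highest here, were the type outside the lineage with the most Sox9 in the XY control, at 74.9 CPM. The E11.5 mutant stood at 32.7 CPM there, a log2 difference of -1.19 (-1.60 to -0.81). The E11.75 mutant was at 97.4 CPM, 0.39 above the control (-0.03 to 0.77), and the XX control at 81.5, a difference of 0.12 (-0.24 to 0.47). The interval of the XX difference thus included 0 in these cells, and the E11.5 mutant stood below the XX control, with a log2 difference of -1.32 (-1.78 to -0.87).

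Coelomic epithelium and interstitial progenitors held less Sox9 in the E11.5 mutant and in the XX control than in the XY control. Coelomic epithelium stood at 30.3, 19.4, 16.7 and 9.46 CPM in the 4 samples, and the XX difference was -1.67 on the log2 scale. Interstitial progenitors, which give rise to steroidogenic and stromal cells, stood at 21.7, 10.0, 15.6 and 9.25 CPM. Endothelial cells stood at 17.5, 7.48, 24.1 and 3.23 CPM, with differences of -1.20 (-1.94 to -0.57) in the E11.5 mutant and -2.36 (-3.69 to -1.40) in the XX control. The part of free RNA in these low levels was not tested. Mesonephric epithelium was level in the control and the E11.5 mutant, at 23.1 and 23.5 CPM, and lower in the E11.75 mutant and the XX control, at 11.4 and 11.6. Germ cells held little Sox9, with 4.01 and 4.15 CPM in the XY and XX controls.

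Counted over types, the interval of the Sox9 difference lay below 0 in 8 and above 0 in 1 of 13 types in the E11.5 mutant, and below in 5 and above in 2 in the E11.75 mutant. With TMM, the counts in the E11.75 mutant became 7 and 1, as the interval for tubules then included 0. In the XX control, 8 types lay below and 0 above, and with TMM the mesenchyme lay above. Between the mutants, 7 of 11 types with enough UMIs were higher at E11.75 and 1 lower, mesonephric epithelium at -1.03 (-1.60 to -0.54), and with TMM 4 were higher and 2 lower.

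In immune cells 1 library decided the value. The immune markers of these cells were also lower in the XY control, with C1qa at 67.1 CPM against 536 to 917 in the other samples, and among its types the hemoglobin gene Hba-a1 was highest in these cells (464 CPM). The XY control held 32.7 CPM of Sox9 in these cells against 3.56 in the E11.5 mutant, a log2 difference of -2.92 (-6.35 to -1.15). Of its Sox9 cells, 17 of 164 were in run 2, where the median immune cell had 1433 UMIs, and 2 of 56 in run 1, where it had 3021.5, and each held a single UMI. With control run 1 alone the difference was -1.16 (-4.94 to 2.63). The part of the marker levels in the Sox9 value was not tested.

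**Figure D4:**
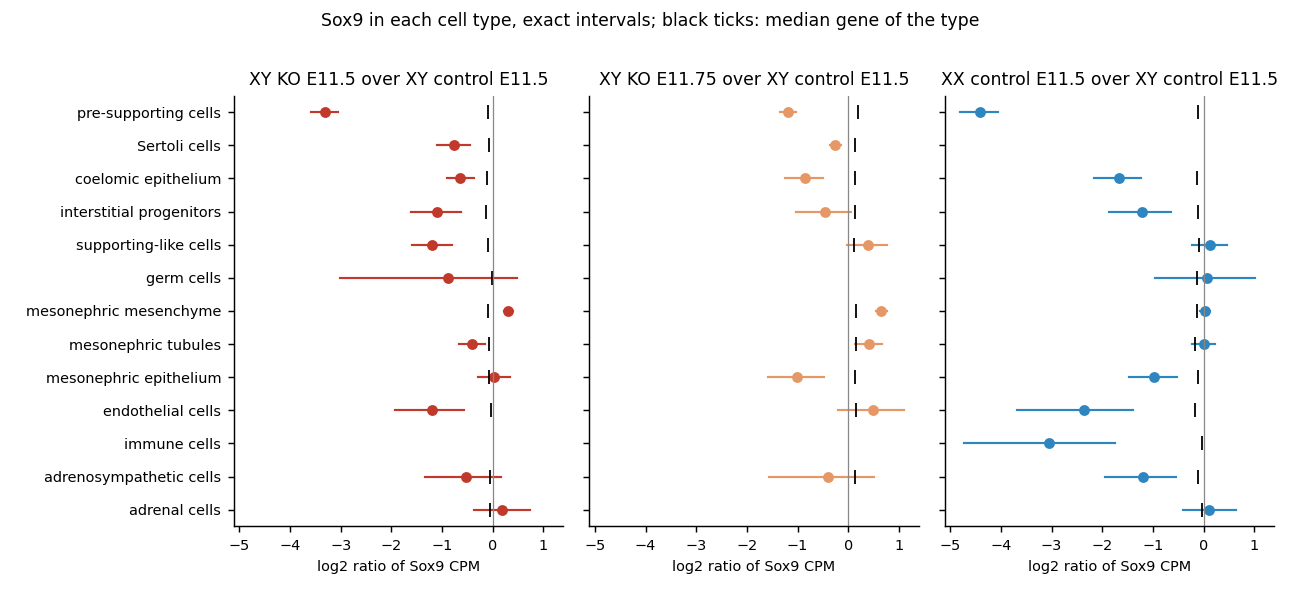
Log2 ratio of Sox9 CPM to the XY control in each cell type, for the E11.5 mutant, the E11.75 mutant and the XX control, with exact 95% intervals; black ticks mark the median gene of the type. The points of pre-supporting cells lie far to the left in the outer panels, while mesonephric mesenchyme lies at 0.31, 0.65 and 0.02.

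Among types of at least 20 cells, Sox8 was highest in adrenosympathetic cells in each sample. These are the neural crest derivatives of the adrenal medulla and sympathetic chain. Sertoli cells came next in the XY control and the E11.75 mutant, but the 24 of the E11.5 mutant had no Sox8 UMI. Sox8 UMIs numbered 296, 147, 63 and 76 in the 4 samples. In the XY control 36.8% of them came from the supporting lineage and 29.4% from adrenosympathetic cells, which were 2.23% of the cells. In the E11.5 mutant the shares were 3.40 and 31.3%. Mesonephric mesenchyme, with far more cells, held 16.6, 29.3, 38.1 and 18.4% of the Sox8 UMIs of the 4 samples. The gene overlaps 2810468N07Rik on the opposite strand at its 5′ end.

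In the supporting lineage Sox8 stood at 9.06 CPM (7.44 to 10.9) in the XY control, 0.809 (5 UMIs) in the E11.5 mutant, 1.78 (10 UMIs) in the E11.75 mutant and 0.439 (3 UMIs) in the XX control. The log2 differences from the control were -3.35 (-5.14 to -2.22), -2.28 (-3.45 to -1.41) and -4.15 (-6.67 to -2.78). Of 109 UMIs in the control lineage, 99 were in Sertoli cells (23.8 CPM, 19.4 to 29.0). Pre-supporting cells held 10, 5, 5 and 3 UMIs in the 4 samples, with overlapping intervals. Their log2 differences from the control were -0.55, -0.15 and -1.37, from too few UMIs to tell whether Sox8 differed there. Sertoli cells numbered 752, 24, 168 and 2, and the parts of their number and of their level in the lineage difference were not tested.

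The Sertoli cells of the E11.75 mutant held 5 Sox8 UMIs, or 4.87 CPM (1.58 to 11.4), a log2 difference of -2.16 (-3.95 to -1.02) from those of the control. In the same cells Sox9 differed by only -0.26. Those of the E11.5 mutant had 0 Sox8 UMIs, but with 24 cells 3 counts would be 19.8 CPM, and the interval of the ratio to the control reached 1.04-fold, so a difference was not detectable at this depth. Of thinned lineage cells with Sox8 in the control, 86.4% (38 of 44) also held Sox9, against 42.3% of those without Sox8. All 38 were Sertoli cells, and within Sertoli cells the shares were 90.5% (77.4 to 97.3%) and 84.5%, with overlapping intervals.

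In adrenosympathetic cells Sox8 was at 36.1 CPM (28.9 to 44.5) in the XY control, 51.2 (37.5 to 68.3) in the E11.5 mutant, 19.2 (8.28 to 37.8) in the E11.75 mutant and 20.6 (14.3 to 28.6) in the XX control. The E11.5 mutant differed from the control by 0.51 (-0.04 to 1.04), an interval that included 0, and by 0.59 with TMM, where it did not (0.04 to 1.12). Split by Sox10, the SoxE gene of glial and Schwann cell precursors, cells with a Sox10 UMI held 77.3 (55.9 to 104), 73.1 (46.3 to 110), 40.2 (14.8 to 87.6) and 32.2 CPM (21.2 to 46.8) of Sox8. Cells without held 23.7 (17.2 to 31.9), 39.4 (25.0 to 59.2), 7.46 and 9.27 CPM (4.00 to 18.3). Sox8 was higher beside Sox10 in each sample, without overlap of intervals in both controls.

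Sox8 was also higher in the mesonephric tubules of the E11.5 mutant than in those of the control, by 1.104 (0.30 to 1.95) on the log2 scale, from 33 and 23 UMIs. A cluster named Mesonephric tubules 2 carried this, with 4 UMIs in the control and 29 in the E11.5 mutant (2.29 and 22.0 CPM), and 5 and 4 in the E11.75 mutant and the XX control. Its cells in the E11.5 mutant also held transcripts of the myogenic factors Myod1 (237 CPM, against 18.9 in the control) and Myog (461 against 49.7), and less of the kidney duct gene Pax2 (60.0 against 163). Cells with at least 2 of Myod1, Myog, Myf5 and Mymx, genes picked after these values were seen, numbered 64 in this cluster in the mutant and 5, 0 and 2 in the XY control, the E11.75 mutant and the XX control, and the 64 held 25 of the 29 Sox8 UMIs (67.8 CPM, 43.9 to 100.1). Without such cells the tubule difference was -0.72 (-2.16 to 0.44).

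**Figure D5:**
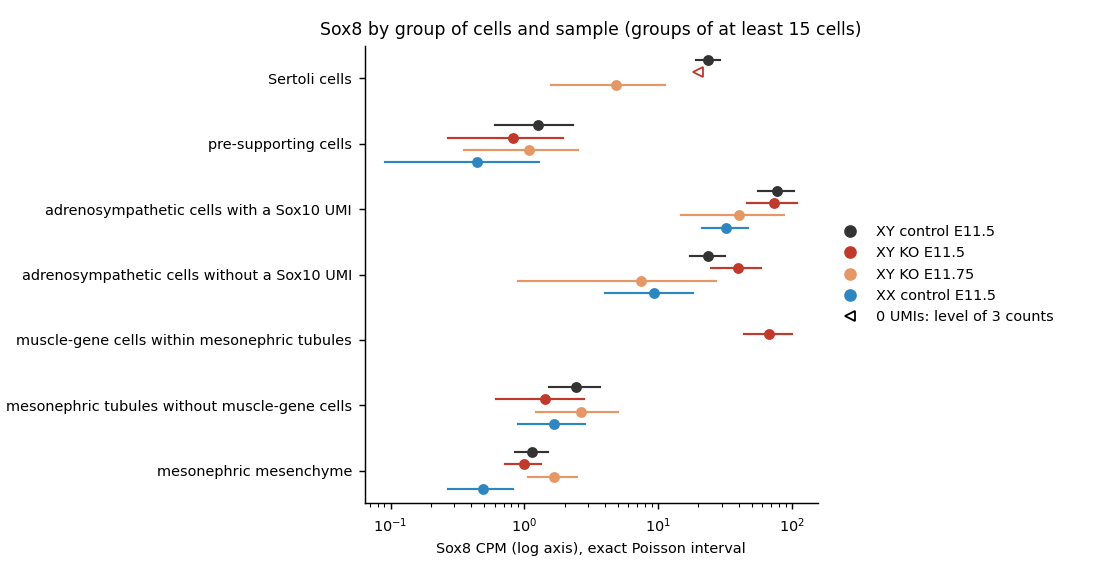
Sox8 CPM on a log axis in the groups of cells where it was found, with 1 point per sample, exact Poisson 95% intervals, and an open triangle for the level of 3 counts where no UMI was found. Control Sertoli cells (23.8 CPM) and cells with Sox10 (77.3 in the XY control) are high, and the muscle-gene cells of the E11.5 mutant stand at 67.8 CPM while the remaining tubule cells of the 4 samples overlap.

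Genes known to act upstream of Sry were counted in the supporting lineage in the same way. Of 13 such genes with enough UMIs, 0 were at least 2-fold higher or lower in the E11.5 mutant, where 1.95 and 7.38% of all genes were, so a count of 0 is near the background. Their median log2 difference was -0.05 beside -0.10 for all genes. The gonadal transcription factors Gata4, Nr5a1 and the cofactor gene Zfpm2 stood at -0.64, -0.66 and -0.78, and the homeobox genes Lhx9 and Emx2 at 0.83 and 0.52. In the E11.75 mutant only the insulin receptor gene Insr was at least 2-fold higher, at 1.40, as were 6.65% of all genes, with a list median of 0.49 beside 0.19 for all genes, and in the XX control only Nr5a1 was at least 2-fold lower, at -1.16, as were 7.02% of all genes. Each count of 1 of 13 is near these shares. In the XY control Gata4 and Nr5a1 were highest in Sertoli cells, at 365 and 340 CPM against 292 and 224 in the whole lineage. Sertoli cells were 752 of 2393 lineage cells there, but 24 of 1108 in the E11.5 mutant and 2 of 354 in the XX control. The part of this mix of cells in the differences was not tested.

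Genes known to act with or after SOX9 in Sertoli cells were mostly low where Sox9 was low. In the E11.5 mutant, 9 of 12 were at least 2-fold below the control and 0 above, against 7.38 and 1.95% of all genes, with a median of -3.26 beside -0.10 for all genes. Among them Fgf9, the growth factor that sustains Sox9, stood at -4.22, the hedgehog ligand gene Dhh at -4.89 and the prostaglandin D synthase gene Ptgds at -3.91. Amh, the hormone gene that removes the female ducts, was at -3.27, and Sox10 had 0 UMIs against 134 in the control. The others lower were Aard (-4.30), Cst9 (-3.25), Cyp26b1 (-1.80), whose enzyme degrades retinoic acid, and Mro (-1.15). The remaining 3 were Dmrt1 at -0.85, Vnn1 at -0.02 and the FGF receptor gene Fgfr2 at 0.91. In the E11.75 mutant, 7 were lower and 1 higher (Fgfr2, 1.87), against 4.11 and 6.65% of all genes, with a median of -1.32 beside 0.19, while Cyp26b1 (-0.97) and Mro (-0.62) did not reach 2-fold. In the XX control 9 were lower and 0 higher, against 7.02 and 2.65% of all genes, with a median of -2.74 beside -0.11. Amh, Dhh, Ptgds, Cst9, Aard and Mro were also the markers used above for Sertoli cells. Those cells were 752 of 2393 in the lineage of the XY control and 24 of 1108 in the E11.5 mutant. They were 168 of 1092 in the E11.75 mutant and 2 of 354 in the XX control. The counts thus describe the lineage as summed, and the part of Sertoli cell number in them was not tested.

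Of the 18 Sox genes in the table, the SoxD genes Sox5, Sox6 and Sox13 were also highest in Sertoli cells of the XY control. In the supporting lineage Sox6 stood at 48.6, 14.9, 29.6 and 7.47 CPM in the 4 samples, and Sox13 at 28.7, 8.58, 19.6 and 9.66 CPM. Sox5 stood at 97.8, 40.0, 102 and 54.2 CPM, so that the E11.75 mutant was at the control's level. Of the SoxC genes, expressed in many immature cells, Sox4 stood at 500.03, 473, 524 and 288 CPM, lowest in the XX control, and Sox11 at 90.9, 107, 120.0 and 97.2 CPM.

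The gene with the pattern most like that of Sry over 38 XY pseudobulks (a cell type in a sample, at least 20 cells) was Gm2044, with a Pearson r of 0.945 on log2(CPM + 5), and Dmrta1 (0.945), Ppara (0.933) and 4930513N10Rik (0.922) were also among the 5 most similar. Sox9 was only at rank 145 of 13155 genes for Sry, at 0.756. Over 50 pseudobulks Sox9 was most like Ptgds (0.832), Gstm7 (0.824), Abtb2 (0.808), Mmd2 (0.808) and Rasl12 (0.805). Sox8 was most like Sox10 (0.9504), Col9a3 (0.919), Prss12 (0.902), Cadps (0.9002) and Insm1 (0.8795), and its likeness to Sox9 was 0.224. Pseudobulks share samples and depth, so these values are descriptions, and a rank correlation kept 1 of the 5 genes for Sry and 0 for Sox9 and Sox8.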

How the data were processed

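The deposited table held raw UMI counts of 21495 genes in 52745 cells, which the authors had obtained with Cell Ranger 6.1.1 on mm10 after adding the second exon of Sry to the transcriptome. A companion table gave the authors' percent of mitochondrial and beta-globin reads, the Seurat clusters and the cell types used here, several of them renamed. The authors had removed doublets with DoubletFinder and filtered XY cells by upper limits on UMIs, genes, mitochondrial and beta-globin percent, and XX cells by discarding low-quality clusters, so XX cells reach far higher UMI counts. Every cell was assigned to its sample through the ending of its name, and all columns were mapped.

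UMIs were summed per cell type and sample and divided by the total of those cells to give CPM, with exact Poisson intervals at 95%. Log2 ratios used a prior of 0.5 counts, with exact binomial intervals, and were counted for genes whose UMIs in the compared pair reached 20. Shares of cells had exact Clopper-Pearson intervals, as deposited and after thinning to 3000 UMIs in 1 random draw. A sum of 0 was read as a limit of 3 counts, and a gene past 2-fold was counted. The median gene was taken over genes with at least 100 UMIs, and genes of similar 3′ UTR length were within 10% of the member's. Intervals and limits cover counting error only. With 1 sample per group, runs of a sample are technical and no p-value was computed. The scripts were tested on simulated data. Sequences and gene models came from RefSeq (GRCm38.p6) and GENCODE M21 for mm10.

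The members and gene lists were chosen with earlier results of these data known. Named were the 3 members, the members of 2 lists (upstream of Sry, and with or after SOX9) past 2-fold with examples of the rest, the other Sox genes, and for each member the 5 most similar genes by Pearson r of log2(CPM + 5), among genes with at least 500 UMIs and pseudobulks of at least 20 cells. Of these similar genes, 1 is not reported here. Alternatives were TMM factors (edgeR 4.0.16, R 4.3.3), other thinning depths, other minimum counts, single runs, other sets of cells, and means of per-cell CPM. Python 3.11.15, NumPy 2.4.6, SciPy 1.17.1, pandas 2.3.3 and matplotlib 3.10.9 were used.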

Additional observations from a re-analysis of the deposited data

Results flagged for a closer look

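Sox9 differed from the XY control in opposite directions in different cell types of the same sample. In the E11.5 mutant the log2 difference was -3.78 in the supporting lineage and 0.31 in mesonephric mesenchyme, and in the E11.75 mutant it was -1.08 and 0.65. Between the mutants, Sox9 was higher at E11.75 in the lineage (2.70) and lower in mesonephric epithelium (-1.03). Against the XX control, the E11.5 mutant was higher in the lineage (1.82) and lower in supporting-like cells (-1.32). Of the 205 Sox9 UMIs in the lineage of this mutant, 84 lay in 24 Sertoli cells. Sox8 in the E11.5 mutant was lower than in the XY control in the lineage (-3.35) and higher in mesonephric tubules (1.104), where the muscle-gene cells held most of its UMIs. In each case the intervals of both types lay on opposite sides of 0, and with 1 sample per group the difference between types was not tested.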

How the results depend on the processing

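Of 88 alternative values for the log2 ratios in the supporting lineage, 73 moved by less than the counting interval and 15 by more. The sign held under all alternatives for Sox9 and Sox8 and for Sry in the E11.5 mutant, while Sry in the E11.75 mutant had the sign of 0.15 in 7 of 9, from -0.05 to 0.51. In cells of 5000 UMIs or more, Sry in the E11.5 mutant was at -0.46 and Sox9 in the E11.75 mutant at -0.92. In pre-supporting cells alone, the differences in the E11.5 mutant, the E11.75 mutant and the XX control were -3.31, -1.18 and -4.41 for Sox9 and -0.55, -0.15 and -1.37 for Sox8. Over all 6 gonadal types they were -3.001, -0.82 and -3.67 for Sox9, and -2.02 for Sox8 in the E11.5 mutant. Sox9 in the E11.75 mutant was at -1.28 with TMM, -1.18 as a mean of per-cell CPM and -1.38 against genes of similar UTR length, which were added after seeing the data, as was leaving out the muscle-gene cells of the tubules, which turned Sox8 there from 1.104 to -0.72.

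Shares of lineage cells followed the depth of thinning (2000, 5000 and unthinned). For Sox9 they were 37.0, 57.1 and 48.7% in the XY control, 4.75, 9.12 and 9.30% in the E11.5 mutant and 20.5, 36.1 and 29.1% in the E11.75 mutant, with 10.2% unthinned in the XX control. For Sry they were 2.81% at 2000 and 6.06% unthinned in the XY control, 0.640, 3.59 and 3.16% in the E11.5 mutant, and 6.04% unthinned in the E11.75 mutant. For Sox8 they were 4.30% at 5000 and 4.01% unthinned in the XY control, and 0.186% at 2000 in the E11.75 mutant. At 5000 UMIs the Sry share of the E11.5 mutant (3.59%) was close to that of the XY control (4.39%).

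Counts of genes past 2-fold followed the minimum of UMIs. Without a minimum, 2351 instead of 976 were lower and 1202 instead of 258 higher in the E11.5 mutant (146 higher at a minimum of 50), 1748 instead of 547 lower and 2570 instead of 886 higher in the E11.75 mutant (347 lower at 50), and 2114 instead of 939 lower and 1642 instead of 354 higher in the XX control (551 higher at 10 and 168 at 50). Between the mutants, 1502 instead of 195 were lower (310 at 10, 114 at 50) and 3229 instead of 1382 higher. Of the 5 genes most like each member, a Spearman correlation kept 1 for Sry, 0 for Sox9 and 0 for Sox8, and for Sox9 a pseudocount of 1 kept 2 and pseudobulks of at least 50 cells 3.

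No paired analysis was possible because each group was 1 sample. Depth limits Sry and Sox8, for which the lineage of a sample held between 0 and 157 UMIs of Sry and between 3 and 109 of Sox8.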
